A study of Mus musculus with 3 samples.

Results

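The desmosome genes of the mouse anorectal junction were described across its epithelial cells before, during and after acute colitis. The 10 genes were the desmosomal cadherins Dsg1a, Dsg2, Dsg3, Dsc1, Dsc2 and Dsc3 and the plaque proteins Pkp1, Pkp3, Jup and Dsp, taken by symbol from the 31053 genes of the deposited table, in which all 10 were found. Tissue of the distal colon and anus was measured by single-cell RNA sequencing with 10x Chromium 3' chemistry, and 37080 cells in 3 libraries were deposited. C57Bl/6 mice, bought at 6 weeks of age, gave 1 library per day, each from the pooled tissue of 5 mice. The day 0 mice were untreated and had normal histology. The day 7 and day 42 mice had drunk 3% dextran sulfate sodium (DSS), which injures the colonic lining, for 6 days from day 0, and were recorded as severely colitic and as recovered. All tissue was digested with trypsin and depleted of dead cells before capture. Trypsin can cut cadherins on the cell surface, but the values here are of RNA.

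Desmosomes are spot-like junctions that tie the keratin filaments of neighbouring epithelial cells together. Their cadherins, the desmogleins (Dsg) and desmocollins (Dsc), bind across the gap between cells. Inside the cell their tails hold plakoglobin (Jup) and the plakophilins (Pkp), and desmoplakin (Dsp) links these to keratin. Stratified squamous epithelia use several cadherin paralogs in layers, whereas simple columnar epithelia such as the colon rely on Dsg2 and Dsc2. Autoantibodies against desmogleins 1 and 3 cause the blistering disease pemphigus.

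A level is given as CPM, in which the unique molecular identifiers (UMIs, 1 per captured molecule) of a gene, summed over the cells of a group, are scaled so that all genes of the group sum to the same total. In 3' libraries a molecule gives 1 count whatever the length of its transcript, so levels of different genes were set side by side on this scale. As each day had a single pooled library, days were compared without a test and without a p-value. Intervals are exact 95% intervals and cover counting error only, not the spread between mice. The libraries held 11037, 14376 and 11667 cells with median depths between 5708 and 6218 UMIs, and between 40 and 55 cell barcodes occurred in both libraries of a pair, at most 0.471% of the smaller one. The authors' cell names and cluster numbers were used. Clusters 1, 3, 4, 5, 8, 9, 12, 13 and 17 of the keratinocytes and clusters 2, 7 and 22 of the colonocytes held at least 50 cells in some library, as did cluster 15 of the secretory colonocytes and cluster 24 of the enteroendocrine cells. Fixed keratinocyte markers summed to between 9794 and 37091 CPM in 8 of the 9 keratinocyte clusters, but to between 3411 and 4775 CPM in cluster 13. The leading genes of cluster 13 at day 0 were Igkc, Igha and Jchain, of immunoglobulins, and Scd1 and Cers4, of lipid synthesis. In cluster 22, of 279 cells at day 7, keratinocyte and colonocyte markers stood at 11262 and 12342 CPM, so its label is doubtful. It remains in the colonocyte class, of which it was 27.5% of the cells at day 7, and cluster 2 is therefore also given alone.

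The 4 plaque genes lie on separate chromosomes (GRCm38). Pkp1 lies on chromosome 1 at 135871395-135919207 (minus strand), Pkp3 on chromosome 7 at 141078218-141090510 (plus strand), Jup on chromosome 11 at 100368958-100397763 (minus strand) and Dsp on chromosome 13 at 38151294-38198577 (plus strand). Dsp and Jup were the members with the highest CPM in keratinocytes, and their promoters are shown. The promoters of the other 8 members are not printed here. The sequences run from 250 bases before to 50 after the start site in RefSeq (GRCm38.p6, chr13:38151044-38151343, plus strand, and chr11:100397741-100398040, minus strand), and capitals mark GGGCGG or its reverse complement, the letters of the Sp family motif.
Dsp: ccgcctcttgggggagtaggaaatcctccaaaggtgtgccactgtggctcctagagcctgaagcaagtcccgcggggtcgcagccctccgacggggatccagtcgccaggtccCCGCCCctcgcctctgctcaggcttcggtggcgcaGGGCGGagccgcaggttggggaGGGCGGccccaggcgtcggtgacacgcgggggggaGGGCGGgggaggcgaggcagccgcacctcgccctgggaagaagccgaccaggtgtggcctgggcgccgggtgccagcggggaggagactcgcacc
Jup: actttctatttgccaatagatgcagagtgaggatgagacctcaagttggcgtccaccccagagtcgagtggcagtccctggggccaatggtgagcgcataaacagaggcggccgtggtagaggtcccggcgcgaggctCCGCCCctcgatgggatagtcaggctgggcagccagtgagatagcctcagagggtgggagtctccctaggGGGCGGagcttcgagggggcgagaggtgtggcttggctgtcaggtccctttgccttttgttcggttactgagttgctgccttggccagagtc
The Dsp window was 73% G or C and held 4 Sp matches, and the Jup window was 60.7% and held 2. GGGCGG occurred on either strand in 35.7% of 32851 RefSeq promoter windows of this length. CACCC, the letters of the Klf motif, was found 1 time in the Dsp window and 2 times in the Jup window, and in 57.5% of all windows. The Grainyhead-like letters AACCGGTT (0.146% of all windows), the AP-1 letters TGANTCA (7.81%) and TATAAA (13.6%) were in neither window on either strand. Overlapping matches were counted separately. These are letter matches and no binding was measured.

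Desmoplakin was the most abundant member in all 9 keratinocyte clusters on all 3 days, except in cluster 12 at day 42, where Jup was at 541 CPM and Dsp at 464. Its CPM in the cornifying cluster 4, led by the suprabasal keratin Krt10, was 1149, 1121 and 1079 at days 0, 7 and 42. In cluster 5, where the mucosal keratins Krt13 and Krt4 were abundant, Dsp was at 1207, 911 and 947 CPM. The highest and lowest keratinocyte clusters differed more than 2 days of 1 cluster did, from 271.6 CPM in cluster 13 to 1207 in cluster 5 at day 0. Plakoglobin was highest in cluster 5 on each day, with 740.2, 631 and 630.04 CPM, and lowest in cluster 13, with 117, 131 and 89.0. In cluster 8, led by Cst6 and Defb6, Dsp was near its cluster 4 level, at 1045, 1141 and 1023 CPM, whereas Jup was at 346, 379.9 and 311. Jup also belongs to adherens junctions, so its RNA does not stand for desmosomes alone. Across 60 cluster-by-day sums of every cell type with at least 50 cells, the gene most like Jup was Dsp (r = 0.89, on log2(CPM + 10)). Of these sums 6 were of cells the authors named unknown, in clusters 6 and 14. Over the 54 sums without them, chosen after seeing the data, S100a16 was nearest to Jup and Dsp was not among its nearest 3 (r = 0.88). These sums share libraries and cells, so such correlations only describe the data and carry no p.

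**Figure D1:**
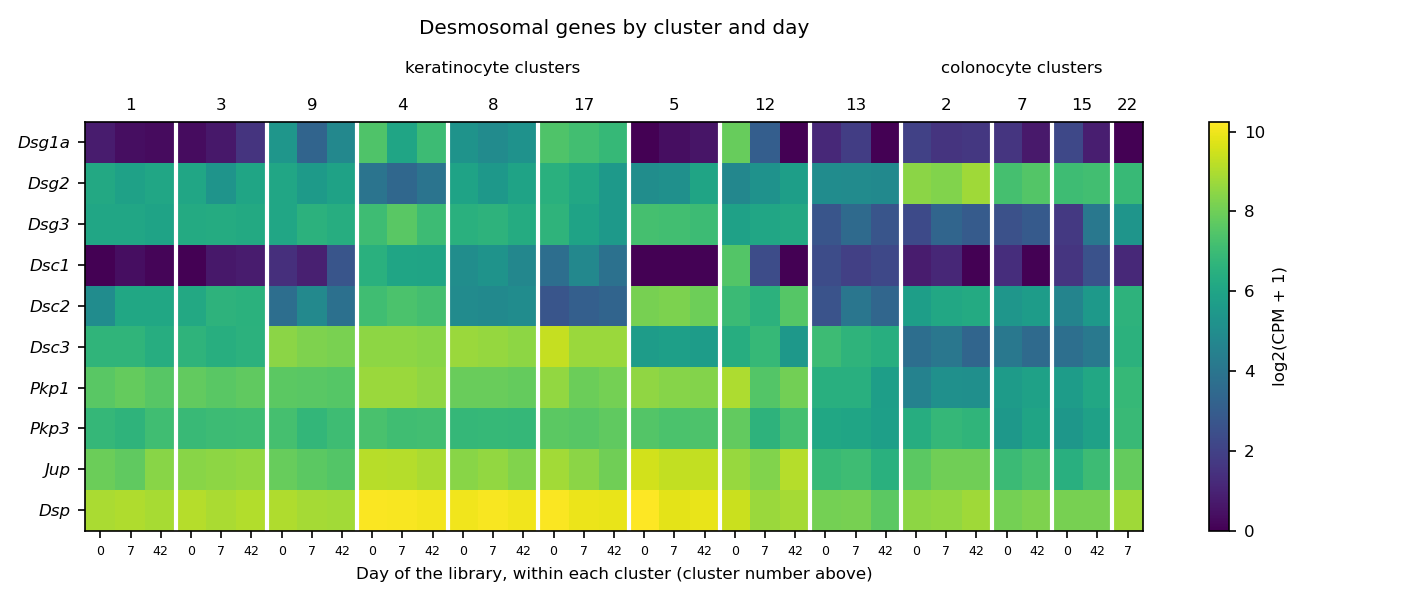
Heat map of log2(CPM + 1) for the 10 desmosome genes (rows) in the keratinocyte clusters, colonocyte clusters 2, 7 and 22 and the secretory cluster 15 (columns, by cluster and day, at least 50 cells each). Dsp and Jup are read in all of them, Dsg2 is highest in cluster 2, and Dsg1a and Dsc1 are high in few clusters.

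Among the plakophilins, which stabilise the cadherin tails, keratinocytes held more Pkp1 and colonocyte cluster 2 relatively more Pkp3. Pkp1 was at 409.9, 419.5 and 368 CPM in cluster 4, at 371, 329 and 323 in cluster 5, and between 182.8 and 223.2 in clusters 1, 3 and 9. On each day clusters 4 and 5 were above the other clusters, except that clusters 12 and 17 read 507.5 and 383 CPM at day 0. Pkp1 made up between 49.1% and 75.4% of the UMIs of the 2 plakophilins in keratinocyte clusters. In cluster 2, the absorptive colonocytes led by Car1, it made up 21.6% at day 0 (95% interval 19.4 to 23.9), 23.4% at day 7 and 24.3% at day 42. Cluster 7, the colonocytes led by Defb45 and Stmn1, was at 52.4% and 48.5% at days 0 and 42, below the keratinocyte clusters of the same day and above cluster 2. Pkp3 had the smallest ratio of highest to lowest keratinocyte cluster among the members on each day, from 67.2 CPM in cluster 13 to 216 in cluster 12, or 199 in cluster 17 without cluster 12, at day 0, and cluster 2 had 81.6, 110.4 and 104 CPM on the 3 days.

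The 6 cadherin genes lie together on chromosome 18, within bases 19960930 to 20604521 of GRCm38. Among them Dsg2 was higher in the absorptive and secretory colonocyte clusters than in the keratinocyte clusters. Dsg2, the desmoglein of simple epithelia, was at 352, 317.5 and 438 CPM in colonocyte cluster 2, at 149.9 and 180.3 in cluster 7 at days 0 and 42, and at 133 and 140.2 in the secretory cluster 15 on the same days. In keratinocytes it ranged from 14.4 CPM in cluster 4 to 89.8 in cluster 17 at day 0. The values of these colonocyte and secretory clusters were thus above every keratinocyte value of their day. The enteroendocrine cluster 24 was an exception among the columnar clusters, with 42.2 CPM of Dsg2 at day 0, inside the keratinocyte range. Of the UMIs of the 3 desmogleins, Dsg2 made up between 95.6% and 98.1% in clusters 2 and 7. Genes with a like pattern to Dsg2 over the 60 sums were Acsl3 (r = 0.88), Spint2 and Epcam, the last a common epithelial surface marker.

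Dsg3, the pemphigus antigen of basal and mucosal squamous cells, was at 90.3, 90.4 and 91.0 CPM over all keratinocytes on the 3 days. Cluster 5 held 147, 139 and 129.7 CPM, and cluster 4 held 134, 196 and 129 CPM. Colonocyte cluster 2 had between 3.92 and 9.11 CPM. Read against T cells, which should lack desmosomes, 0% of T cells had a Dsg3 UMI in any library when each cell was thinned to 1000 UMIs, with exact upper limits of 1.87%, 3.36% and 4.02%. In keratinocytes the thinned share was 7.22%, 8.44% and 8.31%, and unthinned it was 45.3%, 48.5% and 39.8% at median depths of 9168, 11481 and 6542 UMIs. T cells had median depths of 2064, 2260 and 1393 UMIs, and 0.913%, 0.847% and 0% of them had a Dsg3 UMI unthinned. Dsg3 was most like Pkp1 (r = 0.93), followed by Nectin1 and Dapl1. Nectin1 was not among the nearest 3 without cluster 12 or without the unknown cells, and without the latter Dapl1 was nearest.

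Dsg1a, 1 of the mouse copies of the desmoglein of upper epidermal layers, was above 100 CPM in cluster 17 on each day, in cluster 4 at days 0 and 42 and in cluster 12 at day 0. Cluster 4 held 170.1, 64.3 and 129 CPM, and cluster 17 held 170.5, 139 and 115. In cluster 5 it was at 0 CPM at day 0, where 3 UMIs would have been 2.24 CPM, and at 0.290 and 0.484 CPM at days 7 and 42. The same cluster held 147 CPM of Dsg3 at day 0, so among Dsg1a, Dsg2 and Dsg3 its UMIs were nearly all of Dsg3 and Dsg2. The close copies Dsg1b and Dsg1c could share reads with Dsg1a, and the level of each is uncertain to that extent. In cluster 4, Dsg1b was read at 46.2, 45.2 and 39.5 CPM and Dsg1c at no more than 0.211.

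**Figure D2:**
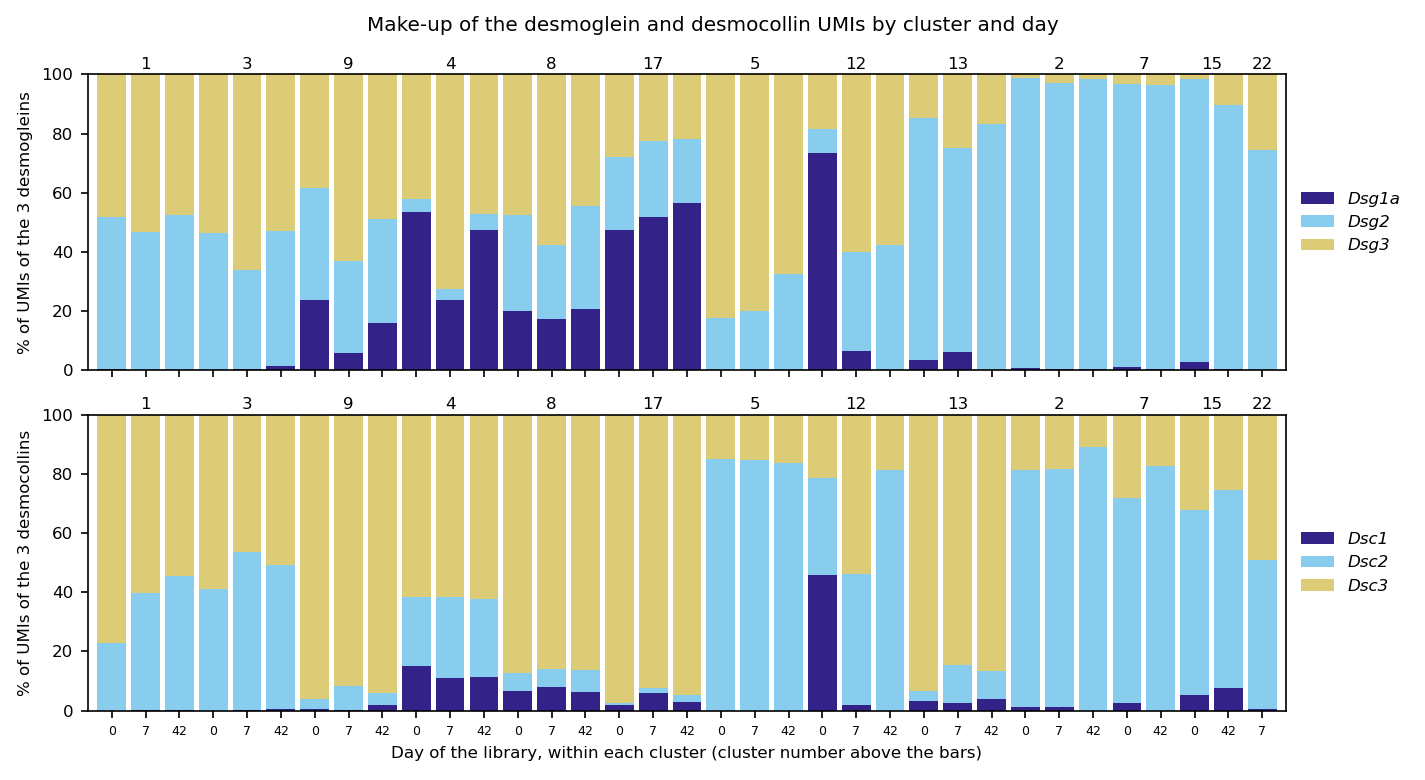
Stacked bars of the percent of UMIs from each of the 3 desmogleins (upper panel) and the 3 desmocollins (lower panel), by cluster and day. Dsg2 fills nearly the whole bars of clusters 2 and 7, Dsc2 most of those of cluster 5, and Dsc3 those of clusters 9 and 17.

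The desmocollins split keratinocyte clusters from each other. In cluster 5, Dsc2 made up 85.2% of desmocollin UMIs at day 0 (81.6 to 88.4), 84.8% at day 7 and 83.7% at day 42. In cluster 17, led by Wfdc18 and Postn, Dsc3 made up 97.4% (95.9 to 98.4), 92.2% and 94.9%, and in cluster 9, led by H19, it made up 96.2%, 91.5% and 94.0%. The mix of paralogs therefore stayed on the same side in these clusters on all 3 days, through colitis and recovery. Dsc3, the desmocollin of basal squamous layers, was at 641.5, 409 and 412 CPM in cluster 17 and at 49.3, 53.4 and 49.2 in cluster 5. Dsc2, the desmocollin of simple and mucosal epithelia, was at 5.50, 7.69 and 8.86 CPM in cluster 17 and at 284, 299 and 252 in cluster 5. Its nearest genes were Tmprss11b (r = 0.90), Evpl and Fam57a, and those of Dsc3 were Car12 (r = 0.91), Lgals7 and Trp63, a regulator of squamous identity. Fam57a was not among the nearest 3 of Dsc2 without cluster 12, nor were Evpl and Fam57a without the unknown cells. Without cluster 12, Lgals7 was nearest to Dsc3 (r = 0.93).

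Dsc1, the desmocollin of the uppermost epidermal layers, stood at 88.4, 64.5 and 62.5 CPM in cluster 4. It was at 0 CPM in cluster 5 at days 0 and 7, where 3 UMIs would have been 2.24 and 0.871 CPM, and had 1 UMI at day 42 among 2153 cells. Dsg1a and Dsc1 were each the other's nearest gene over the 60 sums (r = 0.85), but not over the 57 sums without cluster 12 (r = 0.83), where Capns2 was nearest to Dsg1a and Them5 to Dsc1. Cluster 12, led by the hair follicle keratins Krt71, Krt25 and Krt27 at day 0, had 228 CPM of Dsg1a and 178 of Dsc1 in that library, but it held 51 cells there, and the UMIs lay in 1 cell for Dsg1a and in 2 cells for Dsc1.

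**Figure D3:**
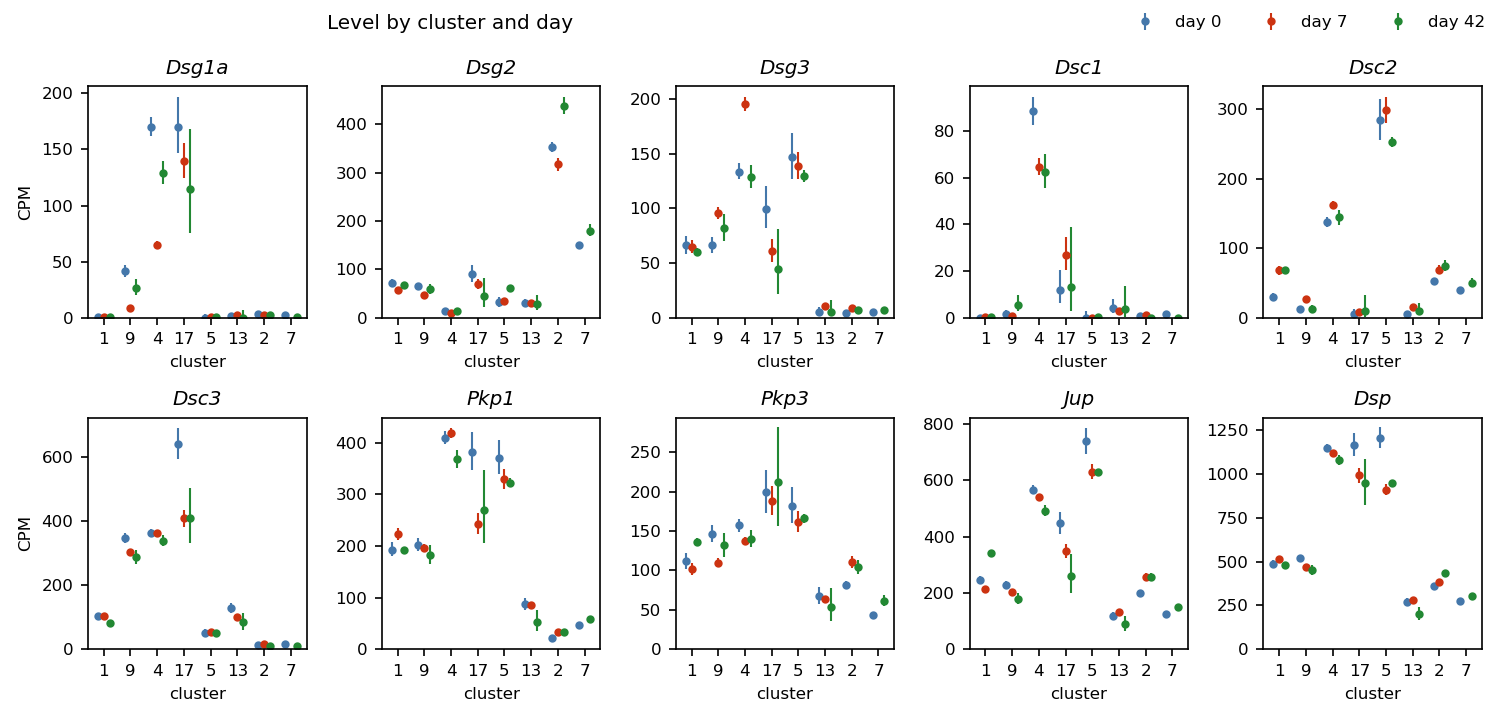
CPM of each desmosome gene in 6 keratinocyte clusters and in colonocyte clusters 2 and 7, one panel per gene with its own axis from 0, coloured by day. Bars are exact Poisson 95% intervals, and Dsg1a in cluster 4 reads 170.1, 64.3 and 129 CPM at days 0, 7 and 42.

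Cluster 5 was set against cluster 4 to compare the mucosal with the cornifying keratinocytes within each library. A gene was counted as past the fold where its log2 ratio, with 10 CPM added to both values, was at least 1 in size. At day 0, 0 of 10 members were higher past the fold in cluster 5 and 3 were lower, beside 7.15% and 4.26% of all genes tested. Dsc3 was lower by 2.65 on this log2 scale at day 0, and Dsg1a and Dsc1 were the other members lower in cluster 5 on all 3 days. At days 7 and 42 the same 3 were lower (background 3.46% and 3.08%) and Dsg2 was higher, with log2 ratios of 1.17 and 1.57 (background 6.63% and 6.6%). Dsc2 stood at log2 ratios of 0.99, 0.85 and 0.77, inside the fold. Of the 10 colonocyte markers, 9 were read in both clusters on each day, summing to 4646, 1809 and 3126 CPM in cluster 5 and to 206, 68.3 and 174 in cluster 4. Krt8 and Krt19 made up 3988, 1580.5 and 2601 CPM of the sums in cluster 5, and the part of the marked cells in the Dsg2 and Dsc2 values was not tested. Dsg3, Pkp1, Pkp3, Jup and Dsp had ratios between -0.47 and 0.38 on all 3 days. By the shares above, most of all genes tested were also inside the fold. The 2 clusters thus differed in some cadherins, mainly Dsg1a, Dsc1 and Dsc3, and less in Dsg3 and the plaque members.

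Cluster 17 differed from cluster 4 in other members. At day 0, 1 of 10 members was higher past the fold in cluster 17 (Dsg2, 2.03) and 2 were lower, Dsc2 (-3.25) and Dsc1 (-2.17), beside 12.1% and 3.51% of all genes. At day 7, 2 were higher and 3 lower (11.2% and 3.14%), with Dsg1a at 1.01 and Dsg3 at -1.54, and at day 42, 1 was higher and 3 lower (13.6% and 5.14%). Dsg2 stood above and Dsc2 and Dsc1 below cluster 4 on each day.

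All keratinocytes were set against all colonocytes in the same way, as the squamous and columnar sides of the junction. At day 0, 8 of 10 members were higher past the fold in keratinocytes and 1 was lower, beside 7.4% and 9.58% of all genes. The log2 ratios were highest for Dsc3 (3.57), Dsg3 (2.78), Dsg1a (2.67) and Pkp1 (2.52), and Dsp, Jup and Pkp3 stood at 1.43, 1.29 and 1.14. Dsc2 was at 0.57, and Dsg2 was the member lower in keratinocytes (-1.98). Over the classes as captured, the gap in Dsp and Jup was smaller in the other libraries. Dsp was at 0.67 and Jup at 0.46 at day 7, and they were at 0.90 and 1.08 at day 42. Colonocyte cluster 7 held 68.0%, 11.8% and 48.1% of the colonocyte UMIs on the 3 days. Within cluster 2 alone, Dsp was at 359, 381 and 432 CPM. The mix of clusters differed between the libraries in both classes, and its part in the gap was not tested. Dsg2 stayed lower in keratinocytes, at -2.67 and -2.22. At day 7, 5 members were higher past the fold and 1 lower, beside 10.3% and 11.6% of all genes, and at day 42 also 5 and 1, beside 6.92% and 10.3%.

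Against day 0, Dsg1a, Dsc1 and Dsc3 were the members with the largest differences over all keratinocytes. Dsg1a was at 68.2, 15.8 and 13.4 CPM on the 3 days, log2 ratios of -1.60 and -1.74 against day 0. Dsc3 was at 287, 178 and 110.1 CPM (-0.66 and -1.31), and Dsc1 at 32.6, 13.5 and 6.19 CPM (-0.86 and -1.39). Dsc2 stood the other way, at 70.4, 86.8 and 134 CPM (0.27 and 0.84). At day 7, 0 of 10 members were higher past the fold and 1 was lower, beside 1.15% and 0.971% of all genes tested, and at day 42, 0 were higher and 3 were lower, beside 2.31% and 1.99%. The members' median log2 ratio was -0.30 at day 7 and -0.06 at day 42, and that of all genes was -0.03 and -0.05. Between days 42 and 7 the log2 ratios were largest in size for Dsc3 (-0.65), Dsg2 (0.60), Dsc2 (0.57) and Dsc1 (-0.54), and 0 members were past the fold in either direction, beside 1.73% higher and 1.43% lower, and with 1 CPM added Dsc1 was lower past it (-1.01).

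The mix of keratinocyte clusters differed between the libraries, and since CPM sums UMIs, a cluster counts by its share of the UMIs of the class. Cluster 5, low in Dsg1a, Dsc1 and Dsc3 and high in Dsc2, held 3.93% of these UMIs at day 0, 2.68% at day 7 and 32.0% at day 42. Cluster 1, low in the same 3 genes, held 12.01%, 5.24% and 35.4%, and cluster 4 held 28.5%, 14.8% and 8.15%. Cluster 3, low in the same 3 genes, held 11.3%, 43.5% and 16.5%, and cluster 12 held 0.464%, 2.99% and 0.359%, against 1.54%, 18.5% and 1.91% of the cells. When the 9 clusters were given equal weight, the day 42 log2 ratios were -0.89 for Dsg1a, -1.004 for Dsc1, -0.34 for Dsc3 and 0.18 for Dsc2. Without cluster 12 as well, over 8 clusters, they were -0.37, -0.18, -0.32 and 0.09, and 0 members were past the fold. At day 7 equal weight to the 9 clusters gave -1.11 for Dsg1a, -0.84 for Dsc1, -0.20 for Dsc3 and 0.16 for Dsc2. Without cluster 12 it gave -0.62, -0.03, -0.24 and 0.26. For day 42 against day 7, equal weight gave -0.13 for Dsc3, 0.25 for Dsg2, 0.01 for Dsc2 and -0.17 for Dsc1. Without cluster 12 these were -0.08, 0.23, -0.16 and -0.15.

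**Figure D4:**
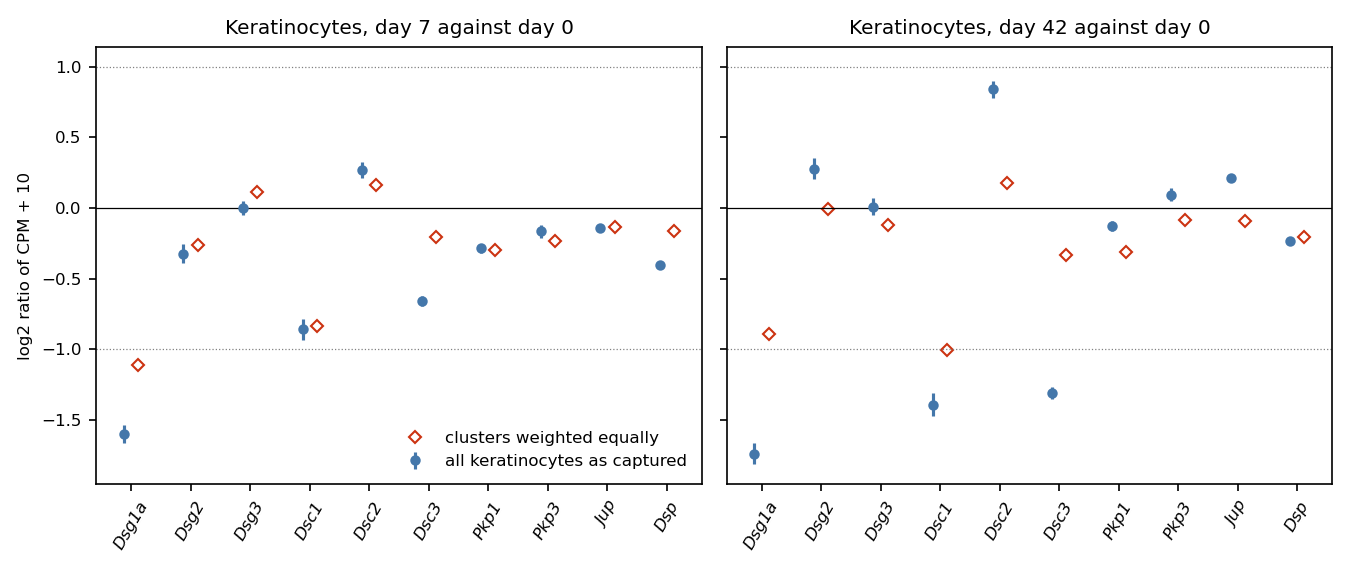
Log2 ratio of CPM + 10 against day 0 for each desmosome gene in keratinocytes at day 7 (left) and day 42 (right), over all cells as captured (filled points, bars for 95% counting intervals) and with the 9 clusters weighted equally (open diamonds). Dotted lines mark a ratio of 1 in size, and at day 42 Dsc3 reads -1.31 as captured and -0.34 with equal weight.

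Members were also compared with day 0 within single keratinocyte clusters. Without cluster 12, 60 of 71 gene and cluster pairs (84.5%) at day 7 and 63 of 72 (87.5%) at day 42 were within 0.5 of 0 on the log2 scale, beside 87.96% and 86.8% of the pairs of all genes. Past the fold were 0 higher and 2 lower pairs at day 7, beside 0.986% and 1.02% of all gene and cluster pairs, and 0 higher and 1 lower at day 42, beside 1.06% and 1.33%. The 2 pairs at day 7 were Dsg1a in cluster 4 (-1.28) and in cluster 9 (-1.44), and the pair at day 42 was Dsg3 in cluster 17 (-1.02), which held 63 cells and 10 Dsg3 UMIs there, which lay in 8 cells. With cluster 12, 0 of 81 pairs were higher and 6 lower at day 7, beside 2.75% and 1.36% of all pairs, and 0 of 82 were higher and 3 lower at day 42, beside 2.42% and 1.98%. The median mitochondrial share of UMIs in cluster 12 was 0.179%, 5.001% and 0.225% on the 3 days. Its neutrophil markers were at 0, 749.9 and 4.79 CPM and its fibroblast markers at 25.4, 186 and 28.7 CPM, and their part in these counts was not tested. Between days 42 and 7, 0 pairs were higher and 1 was lower, Dsc3 in cluster 12, beside 1.23% and 1.96%. Without cluster 12 there were 0 in both directions, beside 0.964% and 1.11%.

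The exact intervals of Dsg1a in cluster 4 were 162 to 179 CPM, 60.8 to 68.0 and 119 to 139.8 on days 0, 7 and 42. Its UMIs were concentrated, since the 10 cells with most of them held 36.3%, 20.1% and 44.3% of the total. Without those cells the levels were 111, 52.3 and 74.7 CPM, with day 7 still the lowest but a log2 ratio of -0.96, inside the fold. In cluster 9 the ratio without the top 10 cells was -1.46. This setting was chosen after seeing the data. The thinned share of cells with a UMI was 9.04%, 3.40% and 6.78%. In cluster 9 Dsg1a was at 41.2, 8.87 and 26.6 CPM, and the thinned share was 4.53%, 1.09% and 1.97%. In the same cluster 4, Dsg3 stood the other way at day 7 (log2 ratio 0.52). Of the UMIs of Dsg1a, Dsg2 and Dsg3 there, with Dsg1b not counted, Dsg1a made up 53.4%, 23.8% and 47.5%. Dsg3 made up 42.0%, 72.6% and 47.3%. Dsg1b in cluster 4 had a log2 ratio of -0.03 at day 7. The neutrophil markers in cluster 9 were at 0.196, 292 and 26.2 CPM. Those in cluster 4 were at 1.14, 145 and 27.0 CPM on the 3 days and T cell markers at 27.6, 95.2 and 29.6, and their part in the result was not tested.

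Dsc2 was above its day 0 level in 7 of 9 keratinocyte clusters at day 7, short of the fold in each. These clusters share the same libraries, and the share of all genes placed in this way was not counted. With equal weight to the clusters its log2 ratio at day 7 was 0.16. In clusters 13 and 17 its values were near the 10 CPM added to each. Its CPM was 30.1, 68.0 and 68.5 in cluster 1 on the 3 days, 12.2, 27.1 and 12.9 in cluster 9, and 5.07, 15.1 and 9.27 in cluster 13. The log2 ratios at day 7 were 0.96, 0.75 and 0.73 in clusters 1, 9 and 13. In cluster 5, where Dsc2 was highest, it was 0.07. Dsg2 in cluster 5 was at 31.4, 34.3 and 61.9 CPM, a log2 ratio of 0.80 at day 42.

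In colonocytes 8 of the 10 members had at least 5 CPM and could be compared between days, and 0 were past the fold in either direction at day 7 (background 3.48% higher and 2.14% lower) or day 42 (1.08% and 0.386%). At day 7 other settings put members higher past it: Pkp3 with size factors (1.03), Dsg3 with 1 CPM added (1.45), Dsc3 without the highest Scrublet scores (1.04), and Dsg3 (1.10) and Dsc3 (1.17) as the mean of CPM per cell. Pkp3 was at 55.5, 108.9 and 83.4 CPM over all colonocytes, Jup at 150.1, 248 and 205, Dsg2 at 215, 281 and 314, and Dsp at 301, 386 and 369. The log2 ratios at day 7 were 0.86 for Pkp3, 0.69 for Jup, 0.37 for Dsg2 and 0.35 for Dsp, and the members' median was 0.52 where that of all genes was -0.14. At day 42 the median was 0.36, and that of all genes -0.04. Cluster 7, low in these members beside cluster 2, held 68.0% of the colonocyte UMIs at day 0, 11.8% at day 7 and 48.1% at day 42, so the class values mix clusters with different levels. Within cluster 2 alone the day 7 log2 ratios were 0.39 for Pkp3, 0.34 for Jup, 0.08 for Dsp and -0.15 for Dsg2, and the members' median was 0.35, beside 0.04 for all genes. The median mitochondrial share of UMIs in cluster 2 was 28.8%, 14.05% and 14.5% on the 3 days. With totals that left out mitochondrial and ribosomal protein genes, a setting chosen for this cluster after seeing the data, the day 7 ratios were 0.23 for Pkp3, 0.16 for Jup, -0.11 for Dsp and -0.34 for Dsg2, and the members' median was 0.18, beside -0.10 for all genes. Over the class such totals gave 0.19 for Dsp and 0.21 for Dsg2. Dsg2 in cluster 2 was at 438 CPM at day 42, a log2 ratio of 0.31. Within clusters, 0 of 8 pairs were past the fold at day 7 (background 2.53% higher and 0.871% lower), 0 of 16 at day 42 (0.852% and 0.384%) and 0 of 8 between those days (0.748% and 1.05%). Between days 42 and 7, 0 members were past the fold over the class, beside 0.937% higher and 1.34% lower. Dsc3 (-0.82) was past it as the mean of CPM per cell (-1.38), with 1 CPM added (-1.26) and without the highest Scrublet scores (-1.09), and Dsg3 (-0.55) with 1 CPM added (-1.01). In the secretory cluster 15, 1 of 9 members was higher past the fold at day 42, Dsg3 (2.28 CPM at day 0 and 15.9 at day 42, or 0 and 0.951 without the 10 cells with most of it), beside 1.4% higher and 0.479% lower among all genes, and the keratinocyte markers there summed to 1019 and 3289 CPM at days 0 and 42. Their part in the Dsg3 value was not tested.

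The squamous members Dsg3 and Dsc3 were low in colonocytes. Pkp1 was at 39.5, 43.4 and 45.1 CPM over the class, near Dsc2 at day 0 (44.1). In cluster 7 at day 0, Pkp1 (47.5 CPM) was above Pkp3 (43.2) and Dsc2 (40.3). Dsc3 was at 14.97, 25.1 and 9.89 CPM over the class and Dsg3 at 4.57, 14.2 and 6.56. Within cluster 2 at day 7 they were at 15.9 and 9.11 CPM, and at 10.1 and 4.18 without its 28 cells of highest doublet score. All 8 keratinocyte markers were read in the class on each day, summing to 1430, 3444 and 2780 CPM, and the part of squamous RNA or cells in these levels was not tested. In cluster 22 at day 7, Dsg2 stood at 117.5 CPM, Dsc3 at 94.3, Pkp1 at 116 and Dsg3 at 40.0, with Krt5 at 2193 and Krt14 at 5421 CPM and neutrophil markers at 1391 CPM. The 5 of its 279 cells with the highest doublet scores made little difference, with Dsc3 at 96.7 CPM without them.

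**Figure D5:**
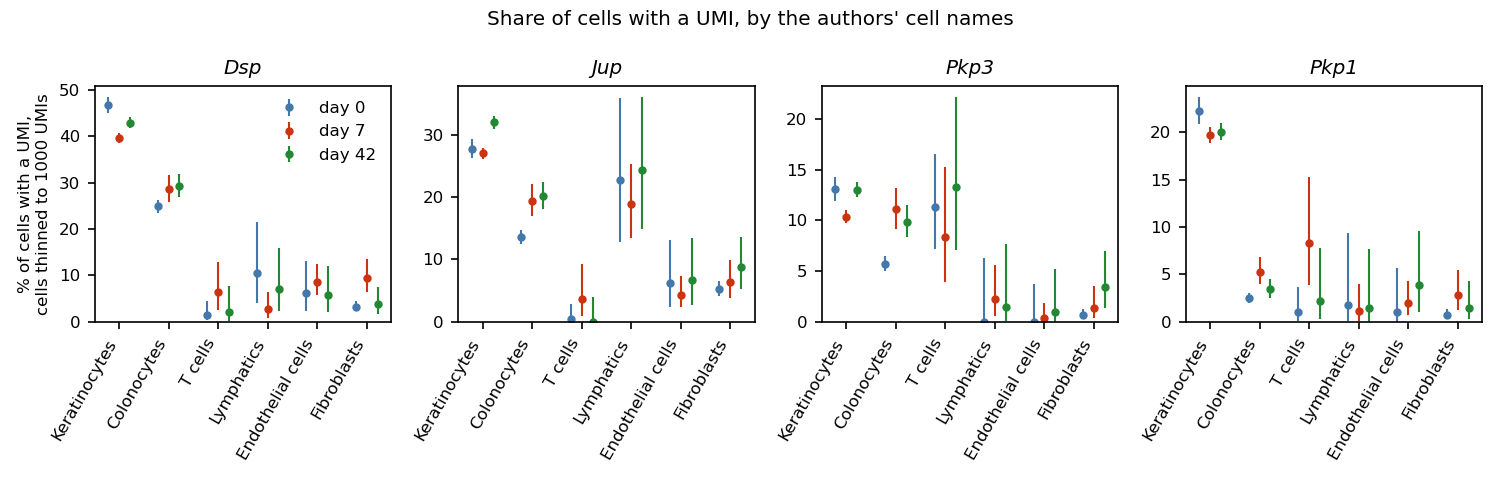
Percent of cells with a UMI of Dsp, Jup, Pkp3 or Pkp1 after thinning to 1000 UMIs per cell, in 6 of the authors' cell types, coloured by day, with exact binomial 95% intervals. Dsp in keratinocytes reads 46.7%, 39.6% and 42.9%, and Pkp3 in T cells reads 11.3%, 8.33% and 13.3%.

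The other genes of the junction were taken from fixed lists, chosen like the members with earlier results known: other desmosome genes (6), the cornified envelope (3), the adherens junction (10), keratins (11), regulators (6) and desmosome proteases with their inhibitor (5). Over all keratinocytes at day 7, 0 of 3 tested desmosome genes and 0 of 3 cornified envelope genes were past the fold. Of the adherens junction genes 0 of 10 were, and of the regulators 0 of 6. The same counts held at day 42. In cluster 5 alone, 2 of 2 tested cornified envelope genes were lower at day 7 (median -1.22) and day 42 (-1.39). In cluster 8, 1 of 3 was higher at day 7. In cluster 12, 2 of 3 were lower at day 7 and 1 of 3 at day 42. The other keratinocyte clusters had none of these envelope genes past the fold on these days. Of all gene and cluster pairs, 2.75% were higher and 1.36% lower at day 7, and 2.42% and 1.98% at day 42. Perp, a membrane protein of desmosomes, was at 1763, 1312 and 1417 CPM, and E-cadherin (Cdh1) at 152, 112 and 132 CPM. Of the keratins, the filaments that desmosomes anchor, 1 of 11 was higher and 4 lower at day 7, beside 1.15% and 0.971% of all genes, and 4 were higher and 2 lower at day 42, beside 2.31% and 1.99%. Within clusters the day 42 counts differed. They were 4 higher and 2 lower in cluster 1, 2 and 5 in cluster 5, and 0 and 4 in cluster 3. Clusters 12, 13 and 9 had 3 and 3, 1 and 2, and 1 and 1. Clusters 4 and 8 had 1 and 0, and cluster 17 had 0 and 1. These stand beside 2.42% higher and 1.98% lower among all gene and cluster pairs, and shares for single clusters are not given. Krt10 was at 3428, 1658 and 841 CPM and Krt19 at 201, 108 and 886 CPM over all keratinocytes. Among proteases and inhibitors 1 of 5 was lower on each day over the class, beside 0.971% and 1.99% of all genes. At day 7 it was Spink5, the inhibitor of epidermal proteases (470.3 CPM at day 0 and 170.5 at day 7). At day 42 it was the protease Klk7 (18.6 CPM at day 0 and 4.06 at day 42). Within clusters at day 42, 0 of 5 were lower in cluster 4, 0 of 4 in cluster 8 and 0 of 3 in clusters 5 and 9. The count was 1 of 3 in clusters 1, 3 and 13, 1 of 5 in cluster 17 and 2 of 5 in cluster 12. Of all gene and cluster pairs 1.98% were lower, and the part of the cluster mix in the class values was not tested.

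In colonocytes 0 of 10 adherens junction genes were past the fold at day 7 and 0 of 9 at day 42. Cdh1 was at 321, 524 and 403 CPM there, and its log2 ratio of 0.69 at day 7 was that of Jup to 2 decimals. The keratins were 4 of 11 higher and 0 lower at day 7, beside 3.48% and 2.14% of all genes, and 4 higher and 2 lower at day 42, beside 1.08% and 0.386%. Krt20, a keratin of surface colonocytes, was at 101.6, 555.5 and 345 CPM, and Krt5, Krt13 and Krt14, keratins of squamous cells, were the other 3 higher on both days. Cluster 22, with the Krt5 and Krt14 levels given above, held 27.5% of the cells and 9.004% of the UMIs of the class at day 7, and 0.0356% of the UMIs at day 42. In cluster 2 alone, 3 of 11 keratins were higher and 0 lower at day 7 (Krt1, Krt10 and Krt20), beside 2.53% and 0.871% of all genes. At day 42, 4 were higher and 0 lower (Krt5, Krt13, Krt14 and Krt20), beside 1.29% and 0.254%. The keratinocyte markers, which include Krt1, Krt5, Krt10 and Krt14, summed to 1309, 2301 and 2894 CPM in cluster 2 on the 3 days. In fibroblasts they summed to 1476, 2316 and 5221 CPM. The part of squamous RNA or cells in these keratin counts was not tested. No gene of the other desmosome, cornified envelope, regulator and protease lists was past the fold in colonocytes on either day.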

How the data were processed

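Single-cell RNA was counted in 3 libraries, 1 per day, each from 5 pooled mice. The authors deposited whole-number counts per gene and cell, and a cell table with day, cluster number, cell name and a size factor, which is the ratio of a cell's total count to the geometric mean of all totals and was not used further. Per the submitters' processing notes, Cell Ranger 3.0.2 and mm10 were used, and per the labels' protocols the libraries were 10x Chromium 3'. The filter on cells and the annotation release are not given in the sources used here. Gene identifiers were matched to GENCODE M21 (GRCm38) for positions.

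Counts were summed per cluster or class and library and given as CPM, with exact Poisson or Clopper-Pearson 95% intervals and a floor of 3 counts. Groups needed 50 cells, and ratios were taken of CPM + 10 over genes with at least 5 CPM in either group. The colonocyte class held the cells named colonocytes only. Thinning drew 1000 UMIs per cell without replacement and left shallower cells out (34, 468 and 91 keratinocytes, 40, 32 and 119 colonocytes, 24, 10 and 31 T cells on the 3 days). The named genes were the 10 members, the 3 genes most correlated with each among those with at least 100 CPM in a sum (5354 genes), and the fixed lists. Members and lists were chosen with earlier results of these data known. Scrublet's own threshold called 423, 0 and 247 cells, so the 5% with the highest scores were left out as an alternative, as were other scalings, filters, weights and the top 10 cells. The ratio script was tested on simulated data. Python 3.11.15 was used with scanpy 1.11.5, scipy 1.17.1, pandas 2.3.3 and numpy 2.4.6.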

Additional observations from a re-analysis of the deposited data

Results flagged for a closer look

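Some members stood on opposite sides of 0 in keratinocytes and colonocytes for the same comparison of days. With 1 library per day the difference between the classes was not tested. At day 7 against day 0 the log2 ratios in keratinocytes and colonocytes were -0.32 and 0.37 for Dsg2, -0.66 and 0.49 for Dsc3, -0.16 and 0.86 for Pkp3, -0.14 and 0.69 for Jup, and -0.40 and 0.35 for Dsp. At day 42 they were -0.12 and 0.15 for Pkp1 and -0.24 and 0.29 for Dsp. The median over all genes was -0.03 in keratinocytes and -0.14 in colonocytes at day 7, and the mix of clusters differed between the libraries in both classes. Not all of these signs held under the other settings. Dsg2 in colonocytes at day 7 was at -0.15 in cluster 2 alone and -0.04 as the mean of CPM per cell, and with size factors Jup in keratinocytes was at 0.03 at day 7 and Pkp1 at 0.06 at day 42.

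Cells the authors named unknown entered none of the comparisons between days or classes. In their cluster 6, where between 90.1% and 93.4% of a median cell's UMIs were mitochondrial, Pkp1 was at 5.95 CPM at day 0, 31.0 at day 7 and 34.5 at day 42. Jup in the same cells was at 15.6 CPM at day 0 and 48.3 at day 7. These levels were above those of day 0. All 8 keratinocyte markers were read in cluster 6, with sums of 454, 2242 and 2408 CPM on the 3 days, and their part in the Pkp1 and Jup levels was not tested.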

How the results depend on the processing

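Over 54 log2 ratios of members between days, none that was past the fold changed sign under any setting. Median-of-ratios size factors changed the sign of 3 ratios, totals without mitochondrial and ribosomal protein genes of 5, and equal weight to the clusters of 12. Of these 12, 4 are among 16 colonocyte ratios for which the setting left cluster 2 alone and weighted nothing, and 8 are among the 38 other ratios, whose median shift was 0.18. The count of members lower in keratinocytes at day 7 was 2 in place of 1 with such totals or with 1 CPM added, and 0 with equal weight to the clusters without cluster 12. At day 42 it was 1 in place of 3 with equal weight, 0 without cluster 12 as well, 2 as the mean of CPM per cell and 2 among members with at least 50 CPM, and 1 member (Dsc2, 1.01) was higher with size factors. In colonocytes at day 7, 1 member was higher with size factors, 1 CPM added or the highest Scrublet scores left out, and 2 with the mean of CPM per cell. The count of lower pairs within clusters was 2 in place of 6 at day 7, 1 in place of 3 at day 42 and 0 in place of 1 for day 42 against day 7 when cluster 12 was left out. Without the 10 cells with most UMIs of the gene, Dsg1a in cluster 4 and Pkp1 in cluster 12 at day 7 were inside the fold (-0.96 and -0.56) and Dsg1a in cluster 9 was not; the other pairs past the fold had 0 UMIs left in a library and no ratio was taken. These settings within clusters and the weighting without cluster 12 were chosen after seeing the data. Fewer clusters or cells enter these settings, and the cause of the other differences was not tested. The correlations of members with the named genes moved by less than 0.05 without cluster 12 or the unknown cells, both chosen after seeing the data, and without the unknown cells 21 of 30 named genes were still among the nearest 3. Depth limits the low genes most, since 3 UMIs were 2.24 CPM in cluster 5 at day 0. No paired analysis was possible because each day had 1 library and no test was made.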

Other observations

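Some members were read outside the epithelium at levels that differed between genes. In T cells Pkp3 was at 112, 106 and 145 CPM on the 3 days, and the share of T cells with a Pkp3 UMI after thinning to 1000 UMIs was 11.3% (7.21 to 16.6), 8.33% and 13.3%. In the same cells the thinned share for Dsp was 1.54%, 6.48% and 2.22%. Of the summed UMIs of Pkp3 and Dsp, Pkp3 made up 57.9%, 55.6% and 87.9% in T cells, against 14.0%, 16.0% and 17.1% in keratinocytes and between 15.6% and 18.4% at days 0 and 42 and 21.998% at day 7 in colonocytes, so the 2 genes were not in the ratio of the epithelial cells there. All 8 keratinocyte markers were read in T cells, summing to 813, 2490 and 1736 CPM, and their part was not tested. In the cells named macrophages and antigen-presenting cells the Pkp3 share was 69.2% (38.6 to 90.9), 45.3% (31.6 to 59.6) and 75% (34.9 to 96.8), from 9, 24 and 6 Pkp3 UMIs.

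In the cells named lymphatics, Jup was at 239.9, 227 and 236 CPM, and the thinned share of cells with a UMI was 22.8%, 18.9% and 24.3%. Dsp in these cells was at 147, 119 and 104 CPM. All 8 keratinocyte markers were also read there, summing to 2702, 2627 and 3347 CPM, and their part in the Jup and Dsp levels was not tested. The unknown cells of cluster 14 had Dsp at 607, 615 and 789 CPM and Dsg3 at 108, 105 and 158 CPM. Their keratinocyte markers summed to 5772, 7141 and 9358 CPM and their median mitochondrial share was 50.7%, 53.4% and 42.4%, and the part of these in the levels was not tested.

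Dsg4, the desmoglein of the hair shaft, had 41 UMIs in all cells, and 30 of them lay in cluster 26 of the keratinocytes, which held 12, 20 and 3 cells on the 3 days.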
